A study of Mus musculus with 2 samples.

Results

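The Kcn genes encode the pore-forming and accessory subunits of potassium channels. All protein-coding genes whose symbol is Kcn, then lower-case letters, then a number were taken as members, with symbols and gene types read from the deposited transcript names. The rule found 92 genes in 20 subfamilies, out of 21938 nuclear protein-coding genes. They were measured by total RNA sequencing of hippocampus taken at 14 days of age from female B6CASTF1/J mice, an F1 hybrid of the C57BL/6J and CAST/EiJ strains. The series has 1 group with 2 libraries, biological replicates 1 and 2. Each library lists 3 females, 300 ng of RNA and added ERCC spike-in RNA, and both carry the same donor identifier. No treatment or mutant allele is named. The labels speak of a hippocampal layer and do not say which one. Levels are in TPM (a share of all transcripts that is corrected for transcript length), as mean ± SD with n = 2 unless a replicate is named. With no second group there is no test of a condition, and the SD describes the spread between these libraries, which may be technical.

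A potassium channel lets potassium ions leave or enter a cell along their gradient through a pore lined by the selectivity filter, a short conserved loop whose backbone strips water from the ion. Voltage-gated members open on depolarisation and repolarise the action potential, and most Slo and SK channels respond to calcium or sodium. Inward rectifiers hold the resting potential, and K2P channels carry background leak current. Modifier and auxiliary subunits do not conduct alone but set where, how fast and how long the pores open. In the hippocampus these currents shape firing of pyramidal cells and interneurons, while glial channels take up the potassium that firing releases.

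The selectivity filter is the stretch that the conducting members share, so its coding sequence is shown for 4 genes whose levels are described further on. Each line gives 39 coding bases from 1 exon of the GENCODE transcript, read 5′ to 3′ on the gene's strand, with the 15 bases of the filter core in capitals. In the order listed, they lie on mm10 at chr15:99232917-99232955 (Kcnh3, plus strand), chr14:23528401-23528439 (Kcnma1, minus), chr1:87389009-87389047 (Kcnj13, minus) and chr15:72512707-72512745 (Kcnk9, minus, the second of its filters).
Kcnh3: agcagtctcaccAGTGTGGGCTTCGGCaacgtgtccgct
Kcnma1: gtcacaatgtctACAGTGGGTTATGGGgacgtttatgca
Kcnj13: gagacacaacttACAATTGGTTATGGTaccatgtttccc
Kcnk9: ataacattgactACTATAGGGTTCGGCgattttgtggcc

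Of the 15 core bases of Kcnma1, 12 were the same in Kcnj13, 9 in Kcnh3 and 8 in Kcnk9. A search for the signature (threonine or serine, any residue, glycine, tyrosine or phenylalanine, glycine) in 1 annotated coding transcript of each member followed the roles. It stood once in 30 of 30 voltage-gated members and in 10 of 10 modifier subunits, and in 0 of 15 auxiliary subunits. Among K2P genes, whose subunits carry a pair of pore loops, 9 of 14 had 2 signatures, 4 had 1 and Kcnk7 had 0. Short transcripts were read for Kcnk10 (241 residues), Kcnk16 (162 residues) and Kcnk7 (233 residues), so a filter may lie outside them. A loop that departs from the pattern was also not counted, so fewer than 2 signatures does not mean that a filter is missing. The inward rectifiers had 1 in 14 of 15, and the Slo and SK pores in 7 of 8; the exceptions were the short transcripts read for Kcnj8 (127 residues) and Kcnu1 (381 residues). The 83 signatures were written in 70 different 15-base codings. An intron fell within the 39-base window of the first signature found in 12 of 13 K2P genes, and in 3 of 61 windows of other members.

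The libraries held 33465393 and 32879872 expected counts (estimated reads, which need not be whole) in replicates 1 and 2. Of these, 150647 and 149598 fell on Kcn genes, or 0.568% and 0.586% of protein-coding counts. All listed markers of CA1 and CA3 pyramidal cells, dentate granule cells, interneurons, astrocytes, oligodendrocytes, their precursors and microglia were detected in both libraries. The 8 choroid plexus markers stood apart, with a summed level of 1435.8 TPM in replicate 1 and 9.88 TPM in replicate 2. Most of each sum was Ttr alone, at 1375.02 and 5.62 TPM. The median of the 8 was 7.135 TPM in replicate 1 and 0.255 TPM in replicate 2. In bulk tissue a lower level from fewer cells of a type cannot be told apart from less RNA per cell. The authors deposited 2 quantifications of each library, and values come from the first quantification unless the second is named.

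Of the 92 members, 67 were detected (at least 1 TPM in both libraries), or 72.8%, against 58.7% of all nuclear protein-coding genes. The mean reached 10 TPM in 42 members and 50 TPM in 6. The median over all members was 8.45 ± 0.428 TPM, against 3.59 TPM over all protein-coding genes. Summed, the family held 1558.42 TPM in replicate 1 and 1575.85 TPM in replicate 2. A few genes carried much of this, the highest 3 giving 23.6% of the family's TPM and the highest 12 giving 51.1%. Kcne3, Kcnj1 and Kcnk16 were listed at 0 in both libraries.

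**Figure D1:**
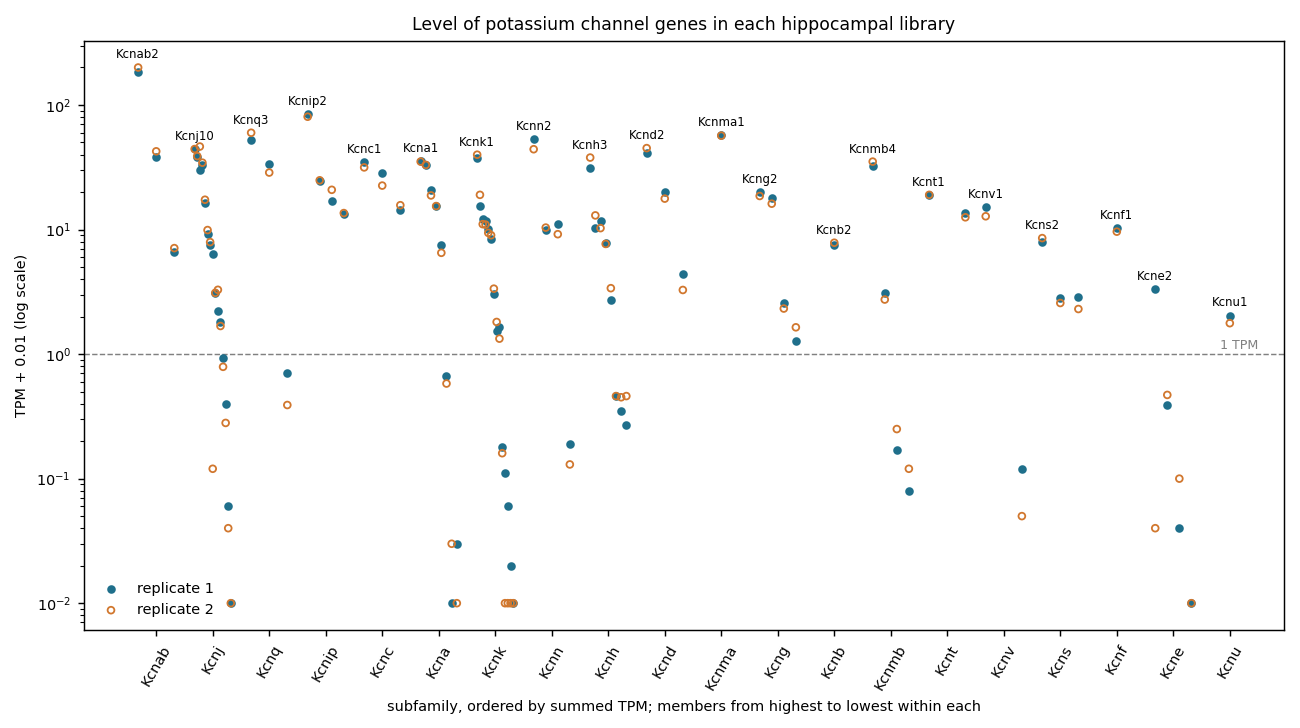
Each member reported by name here is shown by its TPM + 0.01 on a log axis, filled for replicate 1 and open for replicate 2, within its subfamily on the horizontal axis; the highest member shown in each subfamily is labelled and the dashed line marks 1 TPM. Above 1 TPM most pairs of points lie close together, and the wide gaps are those of Kcne2 (3.30 TPM in replicate 1, 0.03 TPM in replicate 2) and, among the Kcnj genes, of Kcnj13 (6.31 and 0.11 TPM).

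The voltage-gated pores were the largest role group, at 607.7 ± 1.90 TPM or 38.8% of the family, with 23 of 30 members detected. Auxiliary subunits followed with 417.4 ± 14.4 TPM (26.6%; 9 of 15 detected) and inward rectifiers with 200.6 ± 10.7 TPM (12.8%; 10 of 15). Slo and SK pores held 160.2 ± 9.21 TPM (10.2%; 7 of 8), K2P pores 103.8 ± 2.82 TPM (6.62%; 9 of 14) and modifier subunits 77.5 ± 4.46 TPM (4.95%; 9 of 10). By subfamily, Kcnab, Kcnj and Kcnq stood highest, in that order, and each lay above the next in both libraries. Further down, the libraries' ranges of Kcnip and Kcnc overlapped, as did those of Kcnn, Kcnh and Kcnd in turn, so these neighbours are not ordered beyond their spread.

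**Figure D2:**
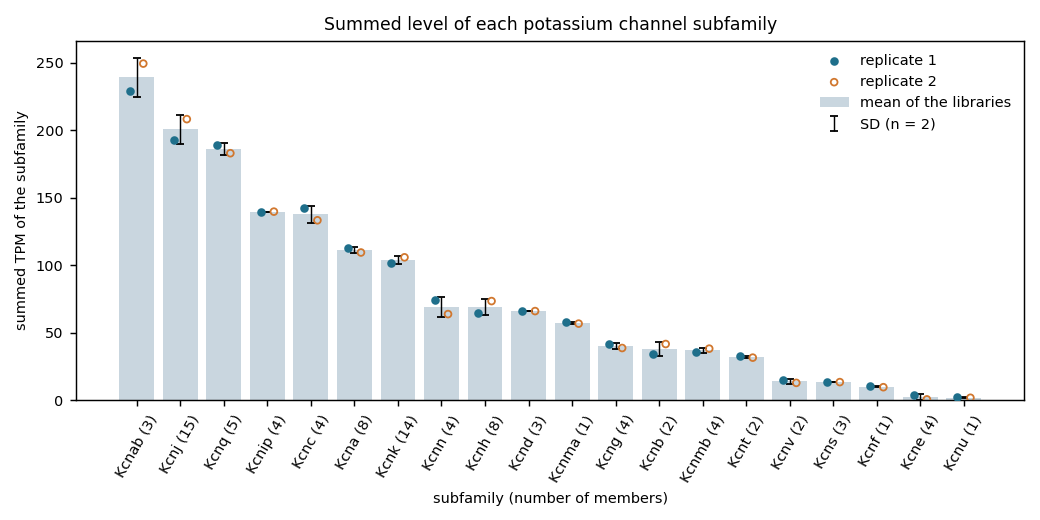
Bars give the mean summed TPM of each subfamily from 0, error bars the SD (n = 2), filled points replicate 1 and open points replicate 2, with the number of members in brackets. Kcnab, with 3 members, reaches 239.0 TPM, above the 15 Kcnj genes at 200.6 TPM, and Kcne and Kcnu lie near 0.

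Kcnq genes encode the pores of the M-current, a slow current that restrains repetitive firing and is shut by acetylcholine. Kcnq3 had 52.53 TPM in replicate 1 and 59.81 TPM in replicate 2. Kcnq5, also an M-current pore of forebrain, had 33.68 and 28.65 TPM. Kcnq3 was above Kcnq5 in both libraries, by 1.56 times in replicate 1 and 2.09 times in replicate 2. The heart and epithelial pore Kcnq1 was under 1 TPM, at 0.69 and 0.38 TPM.

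Kcnc genes encode pores that open and close fast enough for high firing rates, and all 4 were detected. Kcnc1, prominent in fast-spiking interneurons, had 34.55 TPM in replicate 1 and 31.51 TPM in replicate 2. Kcnc2 had 28.44 and 22.51 TPM, and Kcnc4 had 14.36 and 15.66 TPM. In both libraries Kcnc1 was above Kcnc2, and Kcnc2 above Kcnc4.

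Kcna genes, the Shaker relatives that sit on axons and their terminals, were led by Kcna1 at 35.61 and 35.09 TPM and Kcna2 at 33.04 and 33.0 TPM. These axonal subunits co-assemble, and Kcna1 stood at 1.08 times Kcna2 in replicate 1 and 1.06 times in replicate 2. The second quantification put Kcna1 at 1.28 times Kcna2 on average. Kcna6 and Kcna4, the pore of a fast-inactivating current, averaged 19.8 ± 1.44 and 15.4 ± 0.0566 TPM. Kcna3, Kcna5, Kcna7 and Kcna10 were lower, between 0.01 and 6.97 TPM on average. Neighbours on a chromosome differed to varying degrees. Kcna1 lies 61.9 kb from Kcna6 and averaged 1.79 times its level, and Kcna2, 63.1 kb from Kcna3, averaged 4.74 times. Other pairs were further apart in level: Kcna5 lies 105 kb from Kcna1 and averaged 0.615 TPM against 35.4 TPM for Kcna1. Kcna10, 68.1 kb from Kcna2, had 0 counts in replicate 1 and 1 count in replicate 2, while Kcna2 had 7077 and 6986.

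Kcnd pores carry the dendritic A-type current that damps back-propagating action potentials. Kcnd2 had 41.35 TPM in replicate 1 and 45.01 TPM in replicate 2, which was 2.05 and 2.54 times Kcnd3. The X-linked Kcnd1 was lowest of the 3, at 3.81 ± 0.778 TPM. Kcnb2, a delayed rectifier of cell bodies and dendrites, had 7.56 and 7.82 TPM. Of the ether-a-go-go relatives (Kcnh), 5 of 8 were detected and Kcnh3, a forebrain member, led at 31.1 and 37.79 TPM. Kcnh7 and Kcnh1 followed at 11.6 ± 1.92 and 11.0 ± 1.09 TPM and did not differ beyond their spread. Kcnh2, best known for cardiac repolarisation, averaged 7.72 ± 0.0990 TPM.

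Modifier subunits (Kcnf, Kcng, Kcns, Kcnv) form no channel alone and assemble with Kcnb pores, whose kinetics they change. Kcng2 (19.82 and 18.57 TPM) and Kcng1 (17.94 and 16.11 TPM) were highest, and Kcng2 was above Kcng1 in both libraries. Kcnv1 had 15.1 TPM in replicate 1 and 12.76 TPM in replicate 2, Kcnf1 had 10.24 and 9.6 TPM, and Kcns2 had 7.99 and 8.52 TPM. The retinal cone and rod subunit Kcnv2 was the modifier left undetected, with 13 counts in replicate 1 and 4 in replicate 2.

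The member with the highest level was an auxiliary subunit. Kcnab2 (chr4:152390742-152477871, minus strand), a cytoplasmic beta subunit of Kcna channels with the fold of an aldo-keto reductase, had 183.62 TPM in replicate 1 and 199.74 TPM in replicate 2. Its lowest value was above the highest of any other member, and it made up 80.2% of the Kcnab sum. Kcnab1, which speeds inactivation of Kcna pores, had 38.52 and 42.42 TPM, and Kcnab3 averaged 6.83 ± 0.346 TPM. The Kcnab sum was 2.03 times the sum of the Kcna pores in replicate 1 and 2.28 times in replicate 2. In the second quantification this ratio averaged 2.78.

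Kcnip genes encode calcium-binding proteins that bring Kcnd pores to the membrane. Kcnip2 (chr19:45791839-45816061, minus strand) led at 84.68 and 80.43 TPM, and gave 59.2% of the Kcnip sum. Kcnip3 averaged 24.6 ± 0.368 TPM, Kcnip4 18.9 ± 2.77 TPM and Kcnip1 13.4 ± 0.170 TPM. The Kcnip sum was 2.11 times the Kcnd sum in replicate 1 and 2.12 times in replicate 2. This ratio had the smallest spread between libraries of the 8 computed, but it averaged 2.45 in the second quantification.

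Of the BK channel beta subunits, the brain form Kcnmb4 had 32.31 TPM in replicate 1 and 35.07 TPM in replicate 2 and gave 91.4% of the Kcnmb sum. Antisense genes overlap 31.5% of its exonic bases, and one of them, Kcnmb4os2, had 10.42 and 12.32 TPM; how far reads are shared was not tested. Kcnmb2, the inactivating form, averaged 2.90 ± 0.240 TPM. The smooth muscle form Kcnmb1 had 7 counts in replicate 1 and 10 in replicate 2, and its gene lies inside Kcnip1. None of the 4 Kcne genes, single-span subunits of Kcnq1 and other pores, was detected in both libraries.

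Kcnma1 (chr14:23289431-24014491, minus strand) encodes the BK pore, opened by voltage and calcium together. It had 57.54 TPM in replicate 1 and 56.68 TPM in replicate 2, and stood at 1.78 and 1.62 times Kcnmb4. The second quantification put Kcnma1 at 1.48 times Kcnmb4 on average. Among the calcium-gated SK pores (Kcnn), which hyperpolarise the cell after spikes, Kcnn2 led with 53.26 and 44.1 TPM. Kcnn1 averaged 10.1 ± 0.318 TPM and Kcnn3 10.1 ± 1.36 TPM, and their ranges overlapped. Kcnn4, known from blood and epithelial cells, had 8 and 7 counts. The sodium-activated pores Kcnt1 and Kcnt2 averaged 19.0 ± 0.0354 and 13.1 ± 0.813 TPM. Kcnu1, the pore of sperm, had 2.03 and 1.76 TPM from 53 and 42 counts.

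Inward rectifiers are described by kind: glial, G-protein-gated, strong and ATP-sensitive. Kcnj10 (chr1:172341210-172374085, plus strand), the potassium-buffering pore of astrocytes and oligodendrocytes, had 43.9 TPM in replicate 1 and 44.24 TPM in replicate 2. Its partner Kcnj16 averaged 7.70 ± 0.297 TPM, so that Kcnj10 stood at 5.86 and 5.59 times Kcnj16. Of the G-protein-gated pores, which mediate slow inhibition in neurons, Kcnj6 had 38.25 and 38.8 TPM, Kcnj3 33.12 and 34.38 TPM, and Kcnj9 16.23 and 17.33 TPM. Kcnj6 was above Kcnj3, and Kcnj3 above Kcnj9, in both libraries, while the atrial partner Kcnj5 had 0.39 and 0.27 TPM. The strong rectifier Kcnj4 had 30.03 TPM in replicate 1 and 46.34 TPM in replicate 2, and its range spanned the values of Kcnj6 and Kcnj3. The ATP-sensitive pores Kcnj11 and Kcnj8 averaged 9.56 ± 0.467 and 1.73 ± 0.0849 TPM.

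K2P channels were led by Kcnk1 (chr8:125995170-126030685, plus strand) at 37.7 TPM in replicate 1 and 39.85 TPM in replicate 2, or 37.4% of the subfamily. The pores gated by stretch and lipids came next, with Kcnk2 at 17.2 ± 2.47 TPM, Kcnk10 at 11.5 ± 0.728 TPM and Kcnk4 at 11.3 ± 0.516 TPM. Exons of Catsperz on the same strand overlap 13.15% of the Kcnk4 exonic bases, and Catsperz had 5.78 and 5.3 TPM. How far reads are shared was not tested. Of the acid-sensitive pores, Kcnk9 had 10.07 and 9.39 TPM and Kcnk3 had 3.00 and 3.34 TPM, and these did not overlap. Kcnk13, a channel of microglia, averaged 1.66 ± 0.198 TPM. Kcnk12, a close relative of Kcnk13, averaged 8.65 ± 0.481 TPM. The 5 undetected K2P genes had at most 13 counts in a library.

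Genes outside the symbol pattern whose products bind these channels were read from a list of 23, of which 19 were detected. Dpp6, the transmembrane partner of Kcnd pores, had 98.89 TPM in replicate 1 and 106.23 TPM in replicate 2, against 13.35 and 10.03 TPM for its relative Dpp10. The sulphonylurea receptor Abcc8, which completes the Kcnj11 channel, averaged 21.4 ± 0.976 TPM, and Abcc9 averaged 2.96 ± 0.191 TPM. Of 4 leucine-rich subunits of BK channels, Lrrc55 reached 10.5 ± 1.18 TPM and Lrrc26, Lrrc38 and Lrrc52 were undetected. Lgi1, Adam22 and Adam23, extracellular partners at the axonal Kcna complex, averaged 69.5 ± 3.05, 60.3 ± 2.23 and 69.97 ± 3.95 TPM. Ank3, which anchors Kcnq channels at the axon initial segment, averaged 210.5 ± 0.976 TPM.

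Of the 25 members not detected, Kcnj13 and Kcne2 passed 1 TPM in replicate 1 alone and the other 23 stayed under 1 TPM in both libraries. Kcnj14, at 0.92 and 0.78 TPM, lay nearest to the threshold. Above 20 counts in at least 1 library were Kcna5, Kcnq1, Kcnh4, Kcnh6, Kcnh8, Kcnj5 and Kcne4 as well, and the rest had between 0 and 13 counts. For the genes listed at 0, a count of 0 allows up to 3 counts, which correspond in replicates 1 and 2 to 0.154 and 0.155 TPM for Kcne3, 0.0922 and 0.0928 TPM for Kcnk16, and 0.0559 and 0.0562 TPM for Kcnj1, the potassium-secreting pore of kidney.

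The libraries were compared by the log2 ratio of replicate 1 to replicate 2, with TMM scaling, for members with at least 50 summed counts. Of 75 such members, 2 were over 2-fold apart, or 2.67%, against 1.28% of 13795 protein-coding genes. Both were higher in replicate 1 (2.67%, against 1.01% of all genes), and 0 members were over 2-fold higher in replicate 2, against 0.268%. A ratio within 1.2-fold was found for 60 of 75 members, or 80.0%, against 79.2% of all genes. Each side of such a ratio is a single library, so these ratios have no replicate check and no test.

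**Figure D3:**
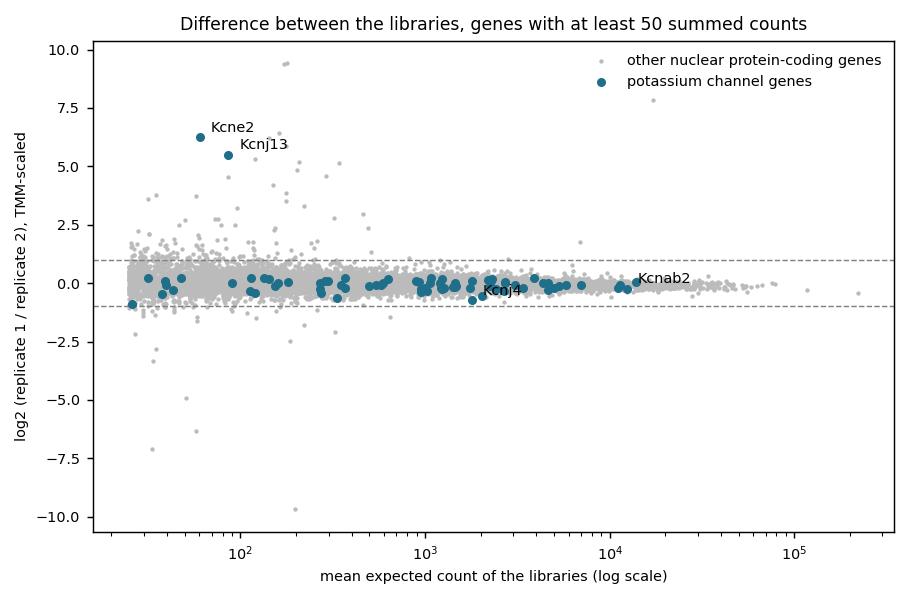
The vertical axis is the log2 ratio of replicate 1 to replicate 2 after TMM scaling, the horizontal axis the mean expected count on a log scale, with Kcn genes in blue over other nuclear protein-coding genes in grey and dashed lines at 2-fold. Kcne2 (6.24) and Kcnj13 (5.50) lie far above the upper line, and all other members lie between the lines.

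Kcnj13 (chr1:87386363-87394729, minus strand), the inward rectifier of choroid plexus and retinal pigment epithelium, had 6.31 TPM in replicate 1 and 0.11 TPM in replicate 2. These came from 169 and 3 counts, a scaled ratio of 52.2 with an exact 95% counting interval of 17.6 to 256. Kcne2 (chr16:92292389-92298129, plus strand), a single-span subunit found in choroid plexus and stomach, had 3.30 TPM in replicate 1 and 0.03 TPM in replicate 2. Its counts were 120 and 1, a scaled ratio of 111 with an interval of 19.6 to 4426. Such intervals cover counting error only. The choroid plexus markers moved with these genes: 8 of 8 were over 2-fold higher in replicate 1, and their median log2 ratio was 4.88. Of the ependymal markers 3 of 5 were over 2-fold higher in replicate 1, with sums of 23.38 TPM in replicate 1 and 10.08 TPM in replicate 2. The minimum of 50 summed counts was not applied to markers. Tmem212 (38 and 6 counts) and Dynlrb2 (21 and 6) fell short of it, while Ccdc153 (61 and 18) did not. Foxj1 and Rsph1 were under 2-fold, at log2 ratios of 0.97 and 0.79. No marker of the 11 other cell type lists was over 2-fold apart. The part of choroid plexus tissue in the Kcnj13 and Kcne2 ratios was not tested. Exons of Gigyf2 on the other strand overlap 49.1% of the Kcnj13 exonic bases, and Gigyf2 had 36.27 and 34.1 TPM.

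The promoters of these genes are shown because they were the 2 members over 2-fold apart between the libraries, both higher in replicate 1. Whether they share any control was not tested. Each line gives the 250 bases upstream of a start from the RefSeq table (GRCm38.p6), on the gene's strand, at chr1:87394730-87394979 for Kcnj13 (minus strand) and chr16:92292139-92292388 for Kcne2 (plus strand). Capitals mark a match to the TATA box core, TATAAA.
Kcnj13: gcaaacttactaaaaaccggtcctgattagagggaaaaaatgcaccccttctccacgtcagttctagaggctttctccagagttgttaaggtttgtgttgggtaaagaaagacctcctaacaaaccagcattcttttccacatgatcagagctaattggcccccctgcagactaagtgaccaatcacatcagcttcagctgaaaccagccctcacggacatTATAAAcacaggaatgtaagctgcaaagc
Kcne2: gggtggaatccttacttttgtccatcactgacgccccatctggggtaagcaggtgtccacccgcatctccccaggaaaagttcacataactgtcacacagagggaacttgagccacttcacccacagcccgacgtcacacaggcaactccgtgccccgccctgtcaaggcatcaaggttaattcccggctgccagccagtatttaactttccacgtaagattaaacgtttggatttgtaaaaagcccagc

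The match in Kcnj13 begins 29 bases upstream of the start; 12.4% of 32851 promoters of this length hold TATAAA on either strand, and the Kcne2 window shown has no such run. Kcne2 has another start in the table, with its window at chr16:92295366-92295615 (plus strand), and that window has no such run on either strand. The transcript from the start shown held 100% of the gene's TPM in both libraries, but in the second quantification the transcript from the other start held 80.2% on average. In the first quantification the gene had 120 counts in replicate 1 and 1 count in replicate 2. The replicate 2 share thus rests on that count, and the average gives both libraries equal weight. The bicoid-type homeobox run TAATCC, the core bound by the choroid plexus factor Otx2, was in none of these windows on either strand, against 6.25% of promoters. Such matches describe letters only.

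Below the 2-fold line, the members with the lowest ratios were Kcnh6 (log2 ratio -0.89, from 19 and 33 counts), Kcnj4 (-0.73), Kcnj2 (-0.66) and Kcnh7 (-0.54). Kcnj4 rested on 1410 counts in replicate 1 and 2163 in replicate 2, and its scaled ratio of 0.604 had an interval of 0.564 to 0.646, so counting error alone is small beside it. Kcnj2 and Kcnj4 are both strong inward rectifiers; another of that kind, Kcnj12, was at 3.07 and 3.09 TPM. Median log2 ratios were also negative for markers of CA1 pyramidal cells (-0.41), dentate granule cells (-0.48), microglia (-0.27), oligodendrocyte precursors (-0.23) and astrocytes (-0.22). Those of oligodendrocytes (-0.10), endothelium (-0.04) and pericytes and smooth muscle (-0.01) were negative too. Markers of CA3 pyramidal cells (0.18), interneurons (0.13) and fibroblasts and meninges (0.50) had positive medians, as did choroid plexus and ependyma. Within the CA1 list, Fibcd1 was at 0.18. The part of the cell mix in these ratios was not tested.

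Transcript shares were read as the percent of a gene's TPM. Kcnd2 and Kcnj10 have a single annotated transcript, and the coding sequence of Kcnj10 lies in 1 exon. Kcnma1, whose alternative splicing tunes its response to calcium, has 38 annotated transcripts, of which 1 coding transcript held 65.29% in replicate 1 and 64.1% in replicate 2. The leading coding transcript of Kcnip2 held 76.8% and 74.02%, and that of Kcnq3 held 73.34% and 68.57%. Kcnab2 was divided more, with 38.65% and 42.91% on the transcript that led in the first quantification, while another coding transcript led in the second.

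Among 67 detected members, 61 had the same leading transcript in both libraries. The leading transcript was annotated as something other than protein-coding in 2 members, or 2.99%, against 6.82% of all detected genes. The same 2.99% had over 50% of their TPM on such transcripts, against 9.28% of all detected genes. The median share on such transcripts was 0.315% over detected members, and 10.4% over all detected genes. The genes were Kcna6 and Kcnt1.

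Kcnt1 (chr2:25863734-25918273, plus strand) had 71.29% of its TPM on retained-intron transcripts in replicate 1 and 57.26% in replicate 2, and 63.2% in the second quantification. Its protein-coding transcripts held 19.26% and 27.61%. Kcna6 (chr6:126708329-126740674, minus strand) was split differently in the libraries in the first quantification only. Its single transcript annotated for nonsense-mediated decay, a pathway that removes messages with early stop codons, held 72.16% in replicate 1 and 20.98% in replicate 2. Its coding transcripts held 12.47% and 58.99%. In the second quantification the decay transcript held 62.9% in replicate 1 and 66.9% in replicate 2, so the shift between the libraries in the first was not seen there. The gene's total was 20.8 and 18.77 TPM and moved little beside these shares. An antisense gene, Gm26673, overlaps 39.6% of the Kcna6 exonic bases but had 0.11 and 0.12 TPM. Kcnk13 also changed its leading transcript. A coding transcript of 3061 bases held 99.98% in replicate 1, and another of 3078 bases held 100% in replicate 2. In the second quantification the transcript of 3061 bases held 99.9% on average, so these shares are uncertain.

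Filter coding and transcript shares were then joined. For 58 detected pore and modifier genes, the share of TPM on protein-coding transcripts whose annotated reading frame contains the signature was over 90% in 35, between 50% and 90% in 17, and at or under 50% in 6. The lowest were Kcnu1 at 0%, Kcnt1 at 22.4%, Kcnk4 at 34.5%, Kcna6 at 35.7% and Kcnj8 at 38.1%, with Kcnh7 at 49.97%. Of these 6, 4 were also at or under 50% in the second quantification; Kcnh7 was at 56.1% and Kcnj8 at 96.2%. Kcnn2, the leading SK gene, had 65.75% in replicate 1 and 74.47% in replicate 2. Kcnn3 had 53.06% and 53.5%, since a retained-intron transcript took 46.94% and 46.5%. Annotated fragments that stop short of the filter count as lacking it, so these shares may understate the message for a complete pore. Transcripts annotated for nonsense-mediated decay were not searched, even with a reading frame. The decay transcript of Kcna6 has one, so the Kcna6 share follows the annotation and does not show whether that transcript encodes the filter. For K2P genes 1 signature was enough to count, so their shares may instead overstate it. Kcnk10 was at 97.1%, although its leading transcript encodes 241 residues with 1 signature.

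**Figure D4:**
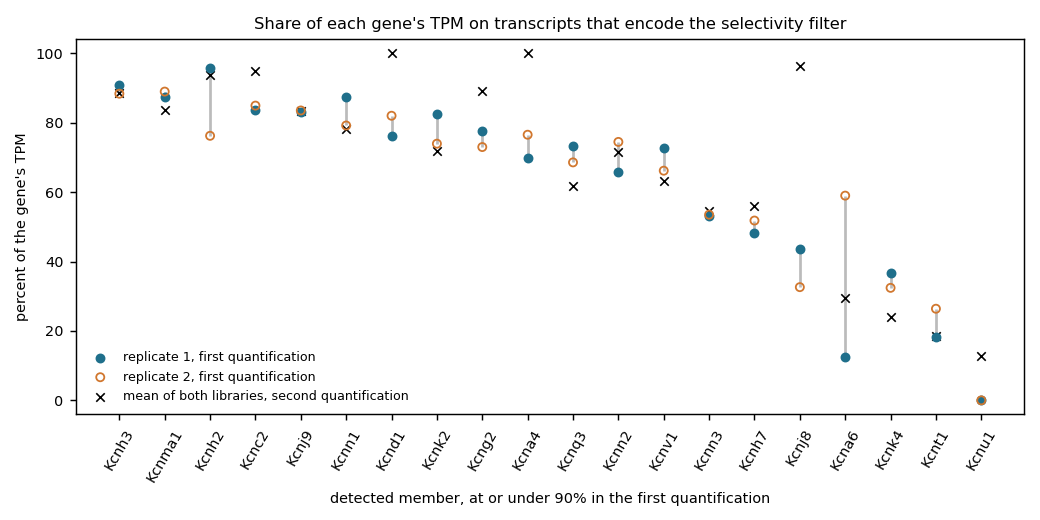
For detected pore and modifier genes at or under 90% and reported by name here, points give a percent of the gene's TPM. It is the share on transcripts annotated as protein-coding that encode the filter. Points are filled for replicate 1 and open for replicate 2, with crosses for the mean of the second quantification. The libraries lie far apart for Kcna6 in the first quantification (12.47% and 58.99%), and the quantifications for Kcnj8 (38.1% in the first and 96.2% in the second).

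The quantifications were compared on log2(TPM + 0.1). Of 70 members with a mean of at least 1 TPM in either, 0 were more than 2-fold apart in one direction in each library, against 10.8% of 14091 protein-coding genes. The median log2 difference of the second from the first was 0.55 for members and 0.64 for all protein-coding genes, so both sets were shifted upward. Kcnt1 moved most, by 0.95, and Kcna4 least, by 0.04. The Kcna4 total hides a change in its parts. A transcript of 370 bases that is not protein-coding held 30.22% in replicate 1 and 23.46% in replicate 2 in the first quantification, and 0% in the second. The posterior SD of the count, the authors' measure of uncertain read assignment, was 0 in both libraries for 89 of 92 members. The others were Kcnab2, Kcnj14 and Kcnk4, and the largest was 4.98 counts, for Kcnk4 in replicate 1 with 320 counts.

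**Figure D5:**
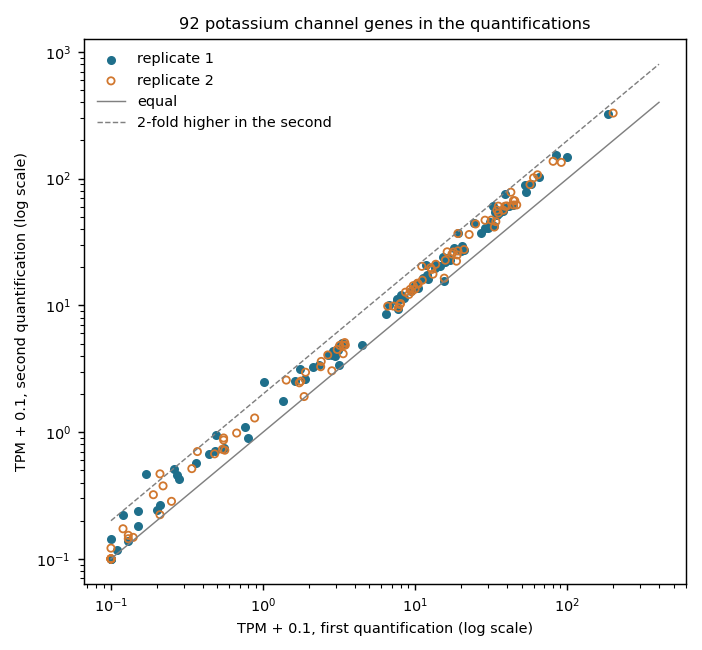
Each member is shown by its TPM + 0.1 in the first quantification (horizontal) and in the second (vertical), both on log axes, filled for replicate 1 and open for replicate 2. Points of members above 1 TPM lie between the line of equality and the dashed line at 2-fold, and the median log2 shift was 0.55.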

How the data were processed

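Total RNA was sequenced from 1 group of 2 libraries. Per the file headers and accompanying notes, the authors quantified each library on mm10 with GENCODE M21. The first quantification, in RSEM layout, gives the deposited expected counts, TPM, the posterior standard deviation of each count, and each transcript's percent of its gene's TPM. The second, in kallisto layout, was deposited as estimated counts and TPM, and was summed per gene here. The aligner, the versions and any use of strand were not given in the sources used here, so overlapping and antisense genes are uncertain. TPM covers all entries, spike-ins and short noncoding RNA included. The mm10 assembly represents C57BL/6J, and CAST/EiJ alleles were not separated.

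Members were chosen by symbol and given roles by subfamily letter. The members and lists were chosen with earlier results of these data known. Named genes were the 12 highest members, the highest of each subfamily, members over 2-fold apart between libraries or quantifications, and those led by a transcript that is not protein-coding; others were named after their values were seen. Some members are not reported by name here and enter only counts and sums. Expected counts were rounded to whole numbers for ratios, with TMM scaling in edgeR 4.0.16 (R 4.3.3), a prior count of 0.5 and at least 50 summed counts; DESeq2 1.42.0 size factors were an alternative. Exact intervals are Clopper-Pearson at 95% and cover counting error only. The ratio step was tested on simulated counts. Filter signatures were found by translating GENCODE transcripts, and promoters came from RefSeq. Python 3.11.15 with pandas 2.3.3, numpy 2.4.6, scipy 1.17.1 and matplotlib 3.10.9 was used. With 1 group no p-value is given.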

Additional observations from a re-analysis of the deposited data

How the results depend on the processing

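The number of detected members was 67, with 69 at 0.5 TPM, 52 at 5 TPM, 68 in the second quantification and 67 to 69 with 1 library left out. The summed level, 1567 TPM, was 3568 TPM when rescaled so that nuclear protein-coding genes alone made up the TPM total and 2434 TPM in the second quantification, and 1558 to 1576 TPM with 1 library left out. The median, 8.45 TPM, was 19.3 rescaled, 12.0 in the second quantification, 11.5 TPM over members with at least 10 counts in both libraries, and 8.15 to 8.755 TPM with 1 library left out. The 2 members over 2-fold apart between libraries numbered 2 with DESeq2 size factors, a prior count of 5, TPM ratios and the second quantification, and 10 without a filter on low counts. Between quantifications, 0 members became 1 without a filter on low values and 0 to 1 with 1 library left out, the 1 arising without replicate 2. The 2 members led by a transcript that is not protein-coding numbered 2 in the second quantification and among members at 5 TPM or more. Leaving out 1 library was not among these settings. In replicate 2 taken alone, a coding transcript led Kcna6 (58.99%) and a transcript annotated for nonsense-mediated decay led Kcnk2 (25.05%). Of 44 levels of named members and subfamilies, all 44 were higher when rescaled and in the second quantification, by more than 1 SD in 42 and 41. Rescaling multiplies all levels of a library by the same constant, so that direction was fixed in advance. In the second quantification the median log2 shift over all protein-coding genes was 0.64, so the rise is not particular to these levels. No paired analysis was possible because there is only 1 group. Levels of members with few counts are limited by depth: 3 counts correspond to 0.112 TPM for Kcnj13 in replicate 1.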
